A study of Homo sapiens with 12 samples.

Results

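HMGA2, its relative HMGA1, the RNA-binding genes IGF2BP1, IGF2BP2 and IGF2BP3, and LIN28B were followed over 12 Affymetrix arrays of 3 human soft tissue sarcoma cell lines. All probe sets to which the platform annotation gave 1 of these symbols were taken, 21 probe sets of 6 genes among 19775 named genes. The genes were chosen by their baseline in each line and by the lower HMGA2 signal with taurolidine in some lines, so both are given here as descriptions without a test. By its label A-204 is a rhabdomyosarcoma line, while SK-LMS-1 came from a leiomyosarcoma and VA-ES-BJ from an epithelioid cell sarcoma. Each line was left untreated or received TRAIL at 50 ng/ml, taurolidine at 250 µmol/l, or both agents together, for 6 h. TRAIL is a ligand that triggers apoptosis through death receptors, and taurolidine is an antimicrobial compound derived from taurine that has been studied against tumour cells. There was 1 array for each line and treatment, and no combination of line and treatment was repeated.

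Apart from IGF2BP2, which many adult tissues keep, these genes are known for their activity in embryonic tissue, their low level in most adult tissue and their return in tumours. HMGA1 and HMGA2 are small chromatin proteins that bind AT-rich DNA and bend it. The IGF2BP proteins bind messenger RNAs in the cytoplasm and affect their stability, transport and translation. LIN28B binds precursors of the let-7 microRNAs and blocks their maturation, and let-7 in turn represses HMGA2, LIN28B and IGF2BP transcripts through sites that pair with its seed. Because that seed links the members, the mature sequences of the let-7 microRNAs that lie within a transcript measured here are shown, from RefSeq (GRCh38.p14), with the seed (bases 2 to 8) in capitals.
hsa-let-7a-5p: uGAGGUAGuagguuguauaguu
hsa-let-7b-5p: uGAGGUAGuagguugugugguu
hsa-let-7c-5p: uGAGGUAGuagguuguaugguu
hsa-let-7f-5p: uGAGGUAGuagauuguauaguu
hsa-let-7g-5p: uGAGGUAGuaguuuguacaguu
All 8 mature let-7 5p sequences, from 11 let-7 genes, had 1 seed in common. The mature microRNAs themselves were not measured by these arrays.

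The deposited signal had the same trimmed mean on every array, between 1000.12 and 1000.16, and at most 0.00183% of values were identical between any pair of arrays. A signal is therefore a share of the RNA on its array, and fewer cells or less RNA per cell cannot be told apart from it. The 27 poly-A spike probe sets, which report RNA added during labelling, were higher with taurolidine by 0.73 (log2) for A-204, 0.52 for SK-LMS-1 and 0.54 for VA-ES-BJ. When the arrays were scaled to these spikes, the median change of all probe sets with taurolidine moved from -0.02 to -0.58 (log2). The myogenic regulators MYOD1, MYOG and MYF5 did not exceed the table's median signal, 136.5, on any array, and DES was at 132 in untreated A-204, so the skeletal muscle label of A-204 has no support from these markers. The 5 smooth muscle markers summed to 23703 in untreated SK-LMS-1 against 3665 for A-204 and 16260 for VA-ES-BJ. That sum was carried by SMTN (11457) and TAGLN (9763). CNN1 and MYH11 were also highest in SK-LMS-1, at 661 and 137. ACTA2 was highest in VA-ES-BJ, at 4980 against 1686 for SK-LMS-1 and 1667 for A-204. The 6 epithelial markers summed to 51711 in untreated VA-ES-BJ, 14820 for A-204 and 12131 for SK-LMS-1, a sum carried by the keratins KRT8, KRT18 and KRT19. The other epithelial markers were highest in A-204, with EPCAM at 1915 against 130 for VA-ES-BJ, CDH1 at 180 against 42.1 and MUC1 at 733 against 292. SMARCB1, a chromatin remodelling subunit lost in epithelioid sarcoma, was at 152 in untreated VA-ES-BJ against 1235 for A-204 and 3530 for SK-LMS-1. The 3 measured leukocyte markers summed to at most 322 in any untreated line, with PTPRC and CD14 at or under the table's median on all arrays and CD3E above it on 5, at 147 in untreated A-204 and 165 in SK-LMS-1. Of the 4 endothelial markers VWF, CDH5 and KDR were at or under the median on all arrays, and PECAM1 was above it on all 12, at 286 in untreated A-204, 389 for SK-LMS-1 and 175 for VA-ES-BJ.

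HMGA2 (chr12:65824460-65966291, GRCh38.p14) was, on the brightest probe sets of the 5 tested members, the gene whose change with taurolidine differed most between the lines. In A-204 its bright probe set 208025_s_at read 8272 untreated, 9139 with TRAIL, 2022 with taurolidine and 2230 with both agents. In SK-LMS-1 the 4 values in the same order were 8833, 9440, 1420 and 1603. In VA-ES-BJ they were 27062, 34641, 29046 and 28078. Thus the arrays with and without taurolidine were far apart in A-204 and SK-LMS-1, whereas in VA-ES-BJ they overlapped and every array was brighter than any array of the other lines.

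Without taurolidine, the HMGA2 mean over the untreated and TRAIL arrays of VA-ES-BJ was 3.54-fold that of A-204 and 3.38-fold that of SK-LMS-1. A-204 and SK-LMS-1 differed by 1.05-fold, less than the gap between their own untreated and TRAIL arrays. Among the 54675 probe sets of the array, HMGA2 ranked 329 in untreated VA-ES-BJ, 2294 for A-204 and 2271 for SK-LMS-1. Per pair of arrays, the log2 change of HMGA2 with taurolidine was -2.03 without TRAIL and -2.03 with TRAIL in A-204, a mean of -2.03 ± 0.002 (SD, n = 2 pairs) or 4.08-fold lower. In SK-LMS-1 the pairs gave -2.63 and -2.55, a mean of -2.59 ± 0.06 or 6.01-fold lower. In VA-ES-BJ the pairs gave 0.10 and -0.30, a mean of -0.10 ± 0.29, so the sign differed between the pairs. With the spike scaling the HMGA2 means were -2.75, -3.11 and -0.64 in the same order of lines, and VA-ES-BJ was then lower as well.

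**Figure D1:**
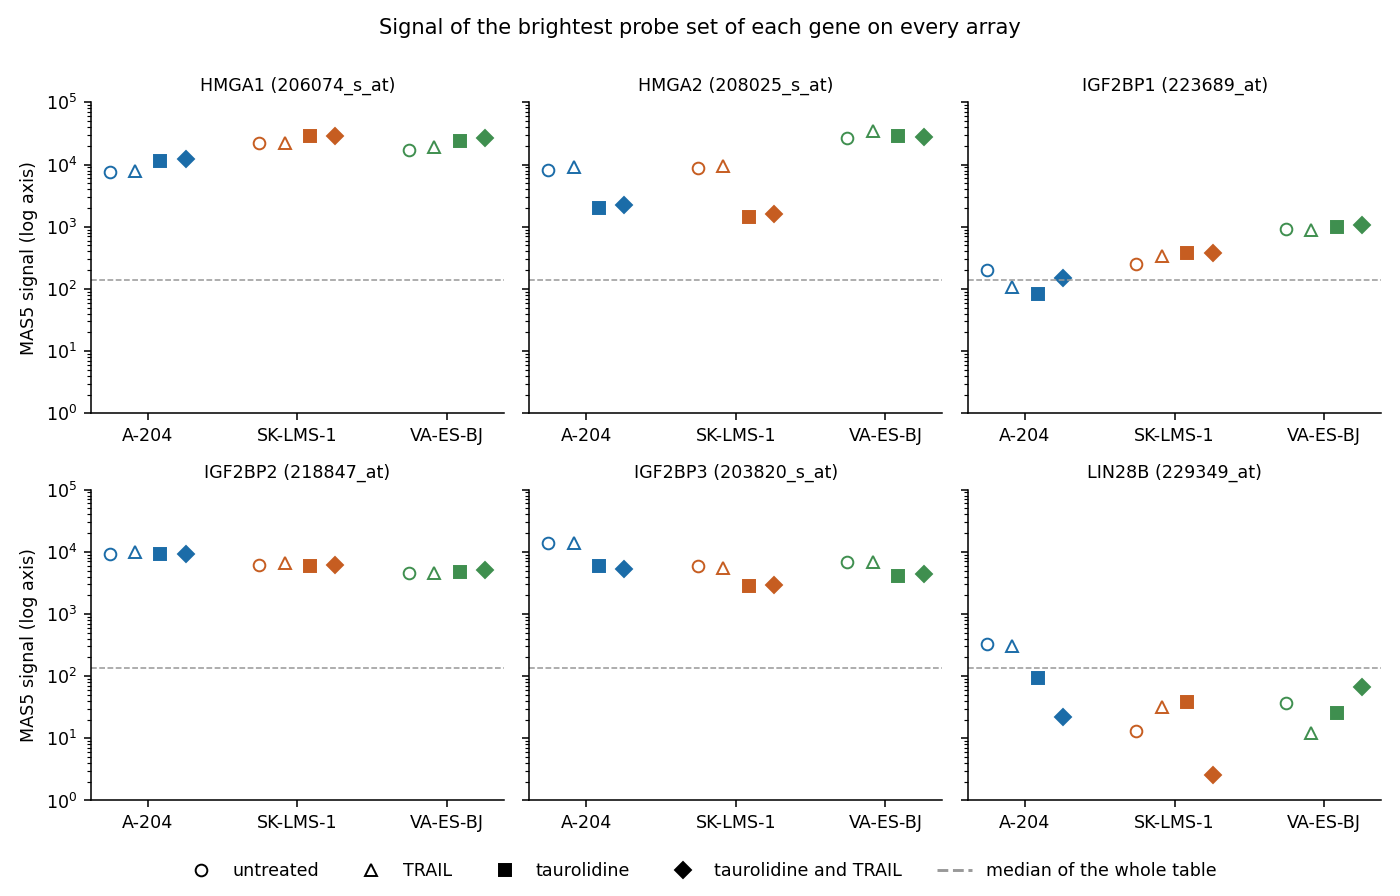
Signal of the brightest probe set of each member on every array (MAS5 signal, log axis), with open symbols for arrays without taurolidine and filled symbols for arrays with it; the dashed line is the median of the whole table. HMGA2 in A-204 and SK-LMS-1 lies between 8272 and 9440 without taurolidine and between 1420 and 2230 with it, while all VA-ES-BJ arrays lie between 27062 and 34641.

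A probe set at high signal can be limited in how far it reports a change, so the brightness of HMGA2 in VA-ES-BJ was set beside other probe sets. On the untreated VA-ES-BJ array 318 probe sets were at least as bright as HMGA2, and the brightest of all read 54366. Of these 318, 1 (0.314%) was at least 2-fold lower with taurolidine in both pairs, and their mean changes ran from -1.39 to 0.31 (log2). At the same signal level, 1 of 457 probe sets in A-204 and 2 of 413 in SK-LMS-1 were 2-fold lower in both pairs. At the lower signal that HMGA2 has in those lines, the counts were 37 of 2278 in A-204 and 21 of 2256 in SK-LMS-1. Whether signal level bears on the line difference of HMGA2 was not tested.

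The other 8 HMGA2 probe sets were dim, none above 1143 on any array, and 5 of them were tested. In A-204 their mean changes with taurolidine were 0.37 for 1561633_at, 0.21 for 1567224_at, 0.53 for 1558683_a_at, -0.05 for 1559891_at and -0.15 for 1558682_at. In SK-LMS-1 they were 0.20, -0.94, 0.23, -0.31 and -0.08 in the same order, and in VA-ES-BJ 0.68, -0.49, 0.61, -0.02 and 0.62. None of these 5 showed a 2-fold lower signal in both pairs of any line. The taurolidine result for HMGA2 thus rests on 1 of its 6 tested probe sets, the brightest of them on every array. Without taurolidine, the order of lines also differed from that of 208025_s_at on most of the 5 dim ones. SK-LMS-1 had the highest mean on 1561633_at, at 764 against 437 for A-204 and 468 for VA-ES-BJ. It was also highest on 1558683_a_at (334), 1558682_at (297) and, by little, 1559891_at (249 against 230 for A-204 and 233 for VA-ES-BJ). On 1567224_at VA-ES-BJ was highest, at 992 against 540 for A-204 and 632 for SK-LMS-1.

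IGF2BP3 (chr7:23310209-23470491), the family member most often reported in tumours, had a lower signal with taurolidine in all 3 lines. Its brightest probe set 203820_s_at in A-204 read 14014 untreated, 13763 with TRAIL, 5908 with taurolidine and 5321 with both agents. In SK-LMS-1 it read 5821, 5405, 2797 and 2959, and in VA-ES-BJ 6775, 6828, 4106 and 4353. No array with taurolidine overlapped an array without it in the same line. The share of all tested probe sets without such overlap was not counted, so nothing is read from it. The mean log2 changes were -1.31 ± 0.09 (SD, n = 2 pairs) for A-204, -0.96 ± 0.13 for SK-LMS-1 and -0.68 ± 0.05 for VA-ES-BJ, which are 2.47-fold, 1.95-fold and 1.61-fold lower. With the spike scaling they were -2.03, -1.48 and -1.22.

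A pair of further IGF2BP3 probe sets gave the same order of lines with larger changes. For 203819_s_at the means were -1.65 for A-204, -1.32 for SK-LMS-1 and -1.20 for VA-ES-BJ, with signals from 1260 to 8721. For 216493_s_at they were -2.04, -1.63 and -1.49, with signals from 195 to 2351. The remaining probe set, 1569033_at, was above the table's median on 3 of 12 arrays and its pairs disagreed, with an SD of 1.06 for A-204 and 2.27 for SK-LMS-1. Before treatment A-204 carried the most IGF2BP3 signal on each of the 3 bright probe sets.

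HMGA1 (chr6:34236873-34246231) was higher with taurolidine on the deposited scale in all 3 lines. Its bright probe set 206074_s_at read 7515 untreated, 7850 with TRAIL, 11259 with taurolidine and 12252 with both agents in A-204. In SK-LMS-1 the values were 22300, 22436, 28725 and 28831; VA-ES-BJ gave 17140, 19398, 24227 and 26845. Arrays with and without taurolidine did not overlap in any line. The same held for IGF2BP2 on 218847_at, whose line means changed by at most 0.11 (log2), so nothing is read from it. The mean log2 changes were 0.61 for A-204, 0.36 for SK-LMS-1 and 0.48 for VA-ES-BJ on the deposited scale, but -0.11, -0.16 and -0.05 when the arrays were scaled to the spikes, so the direction for HMGA1 depends on the scaling. The dimmer HMGA1 probe set 210457_x_at, whose name marks possible cross-hybridisation, changed by -0.24 for A-204 and 0.51 for SK-LMS-1, and its signals with and without taurolidine overlapped in SK-LMS-1 and VA-ES-BJ. Without taurolidine the bright HMGA1 signal of SK-LMS-1 was 2.91-fold that of A-204 and 1.22-fold that of VA-ES-BJ.

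IGF2BP2 (chr3:185643130-185825042), the family member found in many adult tissues, differed by at most 0.11 (log2) with taurolidine in any line on its bright probe set and the deposited scale. In A-204 218847_at read 9288 untreated, 10100 with TRAIL, 9133 with taurolidine and 9256 with both agents. In SK-LMS-1 the values were 6176, 6661, 5864 and 6031; VA-ES-BJ gave 4549, 4629, 4709 and 5083. The mean log2 changes of IGF2BP2 were -0.08 for A-204, -0.11 for SK-LMS-1 and 0.09 for VA-ES-BJ, but -0.80, -0.63 and -0.44 with the spike scaling, where the sign turned in VA-ES-BJ. Its dimmer probe set 223963_s_at had mean changes of -0.56, -0.74 and -0.38 in the same order of lines, with signals from 530 to 1127. In VA-ES-BJ its pairs of arrays gave -1.07 and 0.31, so the sign differed between them. The IGF2BP2 probe sets thus disagreed in size and, in VA-ES-BJ, in the sign of the mean.

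IGF2BP1 (chr17:48996558-49056145), an RNA-binding protein first described through its hold on MYC and ACTB messages, was brightest in VA-ES-BJ. Its probe set 223689_at read 927 untreated, 893 with TRAIL, 985 with taurolidine and 1077 with both agents in VA-ES-BJ. In SK-LMS-1 it read 249, 335, 382 and 384, and in A-204 201, 109, 82.0 and 152. The IGF2BP1 probe set 227377_at also had its highest values in VA-ES-BJ, at 854, 894, 351 and 531, and read at most 145 on every array of the other lines. These probe sets disagreed on taurolidine in VA-ES-BJ, with a mean log2 change of 0.18 on 223689_at (-0.35 with the spike scaling) and -0.997 on 227377_at. The remaining IGF2BP1 probe set, 241574_s_at, did not exceed the table's median on any array and was not tested. In VA-ES-BJ it read 123, 130, 22.3 and 18.1. Its mean log2 change was -2.11 there, -1.35 for A-204 and -0.28 for SK-LMS-1. On their brightest probe sets HMGA2 and IGF2BP1 thus shared VA-ES-BJ as the line of highest signal. For HMGA2 most of the dim tested probe sets did not share it.

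LIN28B (chr6:104937026-105083332) had 1 probe set, 229349_at, which was too dim to be tested because it exceeded the table's median on 2 arrays. Those were the A-204 arrays without taurolidine, at 325 untreated and 306 with TRAIL. In A-204 it read 93.8 with taurolidine and 21.8 with both agents. In SK-LMS-1 LIN28B lay between 2.6 and 38.4, and in VA-ES-BJ between 12.3 and 66.6, so no order of treatments can be read there. LIN28A, its relative, had 1 probe set, which was also too dim to be tested.

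**Figure D2:**
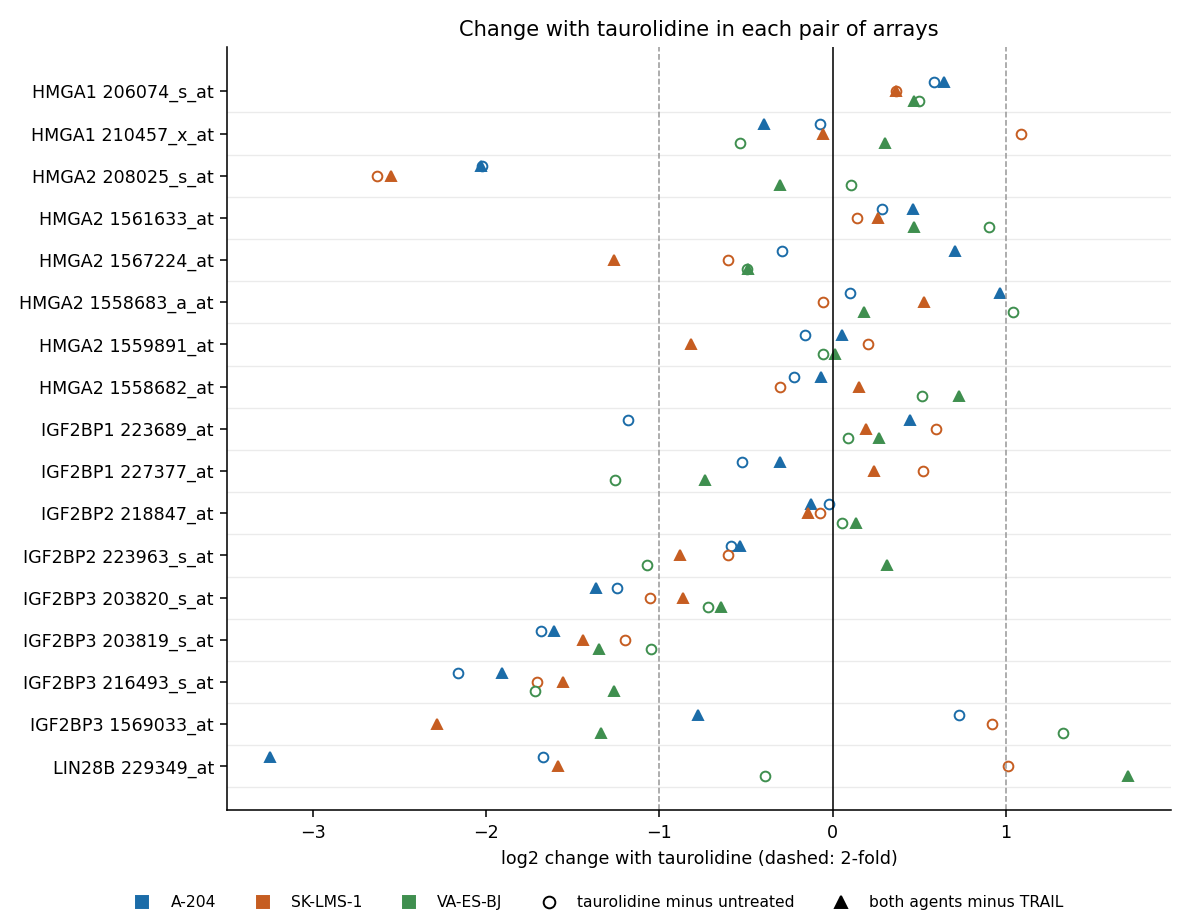
Log2 change with taurolidine in each pair of arrays for the 16 tested member probe sets and for LIN28B, by line (colour), without TRAIL (open circles) and with TRAIL in both arrays (filled triangles). HMGA2 208025_s_at lies at -2.03 in A-204 and near -2.6 in SK-LMS-1, and on both sides of 0 in VA-ES-BJ, while the 3 bright IGF2BP3 probe sets lie left of 0 in every pair.

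Of the 16 member probe sets that passed the filter, 4 were at least 2-fold lower with taurolidine in both pairs of A-204, 3 in those of SK-LMS-1 and 2 in those of VA-ES-BJ. All of them belonged to HMGA2 or IGF2BP3, and in VA-ES-BJ to IGF2BP3 alone. Among all 32421 tested probe sets the same was true of 6.09% for A-204, 3.43% for SK-LMS-1 and 4.73% for VA-ES-BJ, and of 1.21% in every pair of all lines. The median change of the 16 was -0.19 for A-204, -0.21 for SK-LMS-1 and -0.06 for VA-ES-BJ, against -0.04, -0.02 and -0.01 over all tested probe sets. Since these contrasts chose the members, nothing is read from the counts.

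The particular pattern of HMGA2, at least 2-fold lower in both pairs of A-204 and of SK-LMS-1 and in neither pair of VA-ES-BJ, was found in 73 tested probe sets (0.225%) of 59 genes. The VA-ES-BJ change of HMGA2 exceeded the mean of the other lines by 2.21 (log2), rank 4 among these 73. Over all tested probe sets 45 (0.139%) had a gap at least as large.

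**Figure D3:**
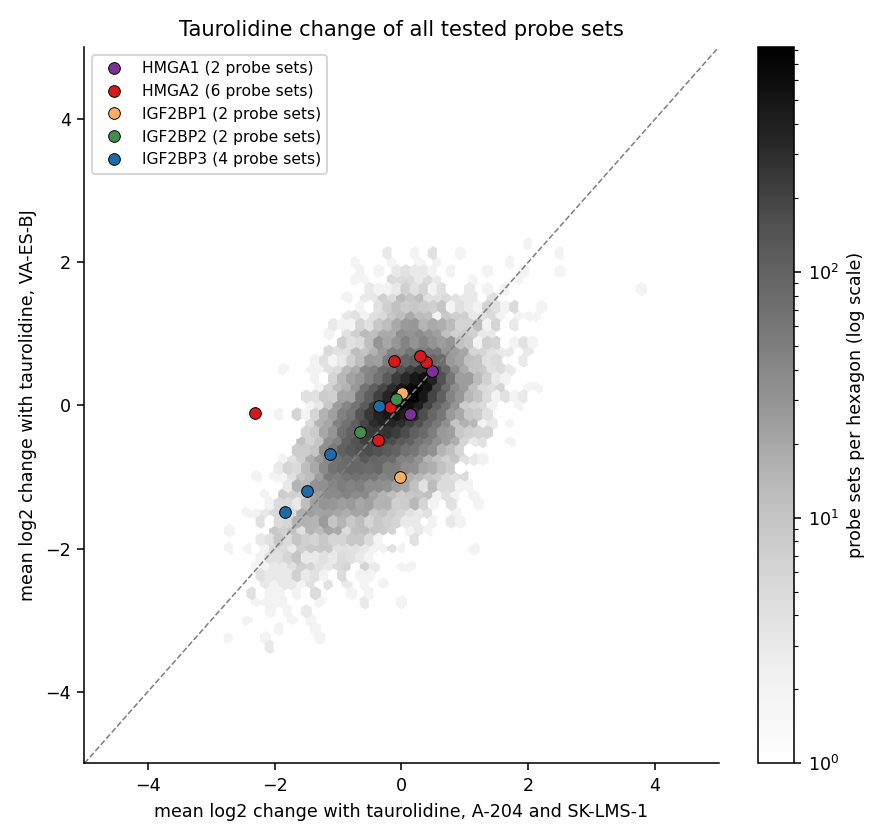
Mean log2 change with taurolidine in VA-ES-BJ (vertical axis) against the mean of A-204 and SK-LMS-1 (horizontal axis) for the 32421 tested probe sets, as counts per hexagon (grey, log scale), with member probe sets in colour; the dashed line marks equal change. The bright HMGA2 probe set lies 2.21 above the dashed line, and the bright IGF2BP3 probe sets lie near it.

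TRAIL, which played no part in choosing the genes, allows a test, made with limma across all 32421 probe sets with cell line as a term. HMGA2 changed by 0.20 (log2, SE 0.54) with TRAIL against untreated cells (limma adjusted p = 0.999) and by 0.09 (SE 0.54) when TRAIL was added to taurolidine (limma adjusted p = 1.0). The change of HMGA2 with TRAIL alone was 0.14 for A-204, 0.10 for SK-LMS-1 and 0.36 for VA-ES-BJ, and with TRAIL on top of taurolidine 0.14, 0.17 and -0.05. Its large SE includes the line difference in the taurolidine response, which the model with common treatment effects counts as error. IGF2BP3 changed by -0.04 (SE 0.16) with TRAIL, HMGA1 by 0.08 (SE 0.11), IGF2BP2 by 0.09 (SE 0.10) and IGF2BP1 by -0.15 (SE 0.29), each on its brightest probe set.

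None of the 16 member probe sets was called in any TRAIL contrast at an adjusted p under 0.05, and none of all 32421 tested probe sets was (0%). The smallest limma adjusted p of a member was 0.999 for TRAIL against untreated cells, 1.0 for TRAIL added to taurolidine, 1.0 for the departure of the combination from additivity and 0.656 for a line difference in the TRAIL response. At an unadjusted p under 0.05 each of these 4 contrasts had 1 member probe set, against 1393, 1056, 1375 and 1834 of all tested. For the first 3 contrasts it was 1569033_at, the dim IGF2BP3 probe set, whose estimates of 1.39, -1.07 and -2.46 come from signals of 14.3 to 165. For the line difference it was 227377_at of IGF2BP1. The median member change was -0.003 with TRAIL and 0.07 with TRAIL added to taurolidine, against -0.03 and 0.009 over all tested probe sets. With 3 lines and 1 array in each cell of the design, small TRAIL effects were not detectable. Larger ones could be missed too, as the estimate of -2.46 for 1569033_at was not called.

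**Figure D4:**
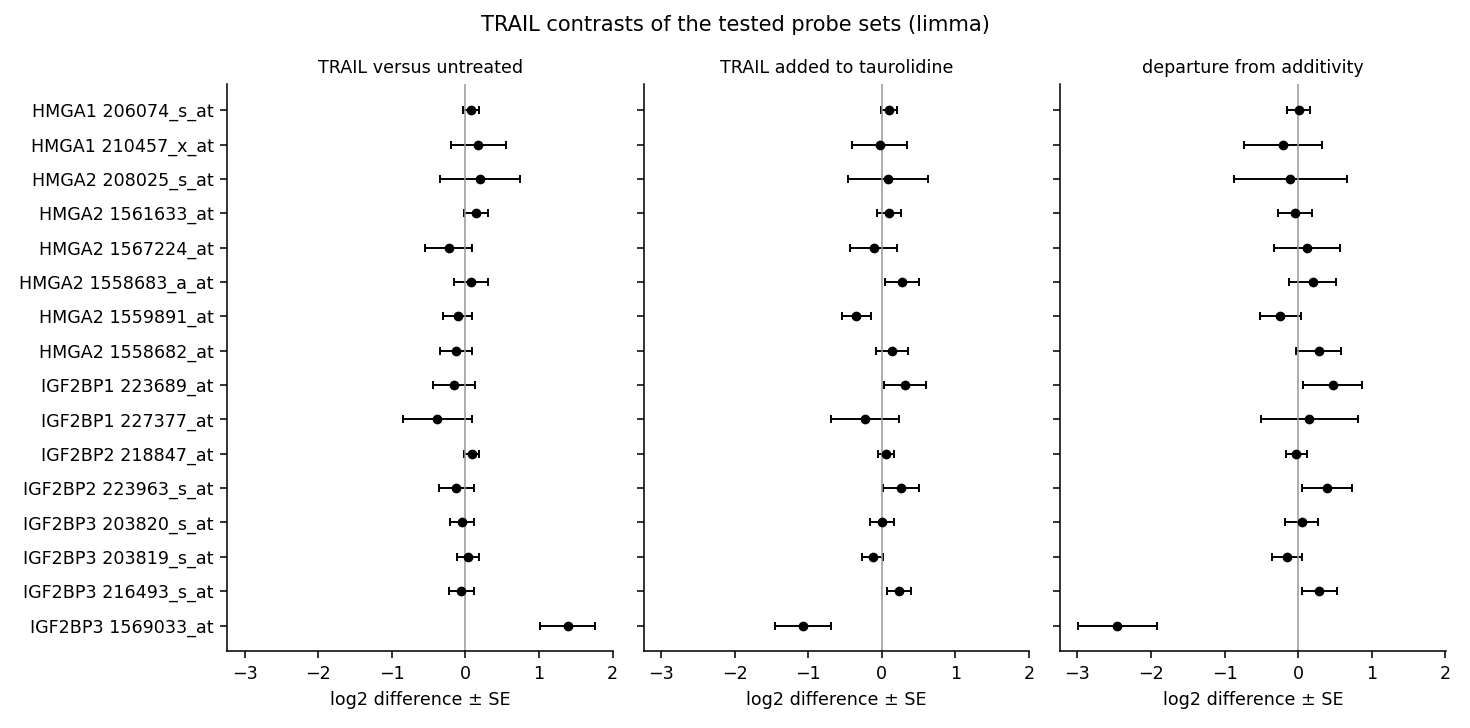
Estimated log2 difference with its standard error for the 16 tested member probe sets in 3 TRAIL contrasts (limma, 12 arrays). The brightest probe sets of the 5 genes lie between -0.15 and 0.20 for TRAIL against untreated cells, and only the dim IGF2BP3 probe set 1569033_at lies beyond 1.

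Genes that share most of the HMGA2 pattern were named by Pearson's r over the log2 values of the 12 arrays, a description without a test in which line and treatment are shared by all points. The 5 highest were LINC00621 (0.985), TMEM185B (0.979), GTF3C2 (0.973), SLC35G1 (0.971) and IRGQ (0.969). TMEM185B, for example, changed with taurolidine by -0.79 for A-204, -0.69 for SK-LMS-1 and -0.08 for VA-ES-BJ. With the line means removed the highest were SRXN1 (0.986), POLR1G (0.986), NXT1 (0.984), MED20 (0.983) and EXO5 (0.977). NXT1, a cofactor of messenger RNA export, changed by -0.96 for A-204, -1.18 for SK-LMS-1 and -0.07 for VA-ES-BJ, and POLR1G, a subunit linked to RNA polymerase I, by -0.72, -0.88 and 0.05. In all 10 of these genes the changes in A-204 and SK-LMS-1 were smaller than those of HMGA2.

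For IGF2BP3 the likest profile was that of MALSU1 (r = 0.986), a mitochondrial ribosome assembly factor whose gene (chr7:23299339-23311729) overlaps IGF2BP3 by 1521 bases in RefSeq. MALSU1 changed by -1.12, -0.69 and -0.51 with taurolidine in A-204, SK-LMS-1 and VA-ES-BJ. Whether the MALSU1 and IGF2BP3 probe sets read each other's transcripts was not tested. CPT2 (0.978) and MRTFB (0.976) followed. For HMGA1 the likest were PMAIP1 (0.986), which encodes the apoptosis protein NOXA, ZMIZ2 (0.985) and GLUD1 (0.984), and PMAIP1 changed by 1.20, 1.20 and 1.09. For IGF2BP1 they were RGS4 (0.990), BDH1 (0.986) and IGF2R (0.979), and for IGF2BP2 PALM3 (0.989), PCDHB14 (0.987) and MALL (0.987). Between members, with line means removed, r was 0.889 for HMGA2 and IGF2BP3, -0.952 for HMGA1 and IGF2BP3 and -0.751 for HMGA1 and HMGA2. Over the 12 arrays with the line means kept, the values for these pairs were 0.326, -0.877 and 0.064.

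The neighbouring pathway was described with 7 lists of 84 genes, of which 70 were tested, in the taurolidine contrast against untreated cells. In all, 15 of the 70 fell and 1 rose at a limma adjusted p under 0.05, against 9.74% lower and 5.43% higher among the 14221 tested genes. None of the 70 was called for a line difference in its taurolidine response, against 0.366% of all tested genes. At so low a share a list of 70 genes can easily hold no call, so nothing is read from this. None of the 70 was called in the contrasts of TRAIL with untreated cells, of TRAIL added to taurolidine or of additivity. Mean changes given by line average the pairs without and with TRAIL, whereas the contrast compares taurolidine with untreated arrays only. The calls in the contrast come from a fit over all 3 lines. Over all tested probe sets the calls went from 4402 to 0 without A-204, to 478 without SK-LMS-1 and to 58 without VA-ES-BJ. Fewer arrays were fitted there, so these counts do not show what each line contributes.

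Of 14 tested genes of LIN28 function and let-7 processing, 4 fell and none rose, with a list median of -0.13 against -0.003 over all tested genes. TNRC6A, a scaffold of the silencing complex, fell by 1.70 on the log2 scale (SE 0.21, limma adjusted p = 0.0033). TUT4, which tails let-7 precursors bound by LIN28A, fell by 0.71 (SE 0.12, limma adjusted p = 0.012), and AGO4, an Argonaute protein, fell by 0.79 (SE 0.21, limma adjusted p = 0.045). DICER1, the enzyme that cuts the precursor and itself a known let-7 target, fell by 0.99 (SE 0.23, limma adjusted p = 0.03). The line means of DICER1, over the pairs without and with TRAIL, were -1.30 for A-204, -1.16 for SK-LMS-1 and -0.39 for VA-ES-BJ. The line difference did not pass (limma adjusted p = 0.15). DROSHA, the nuclear enzyme of the pathway, was at -0.16 and did not pass.

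Of the 5 tested transcripts that span a let-7 gene, none was called with taurolidine. MIR100HG (chr11:122028329-122422871), which spans the let-7a gene at chr11:122146568-122146589 on the minus strand, separated the lines. Its probe set 225381_at read 6181, 6002, 6162 and 7094 in A-204 and 5330, 4776, 6010 and 5306 in SK-LMS-1, for untreated, TRAIL, taurolidine and both agents. In VA-ES-BJ, the line with the highest HMGA2 signal on its brightest probe set, MIR100HG read 6.73, 7.76, 8.85 and 14.1. Its mean log2 change with taurolidine was 0.12 for A-204 and 0.16 for SK-LMS-1, the lines where HMGA2 was lower. With 3 lines no relation between MIR100HG and HMGA2 across lines can be tested, and let-7 itself was not measured. The dimmer MIR100HG probe set 241975_at read 473 in untreated A-204, 64.5 for SK-LMS-1 and 28.4 for VA-ES-BJ. Among the other spanning transcripts WDR82, which spans let-7g, was at -0.56 (limma adjusted p = 0.083), MIRLET7BHG, which spans let-7b, at -1.23 (limma adjusted p = 0.10), and HUWE1, which spans a let-7f gene, at 0.32 (limma adjusted p = 0.24). MIR99AHG, which spans let-7c, was at 0.13 (limma adjusted p = 0.84). In untreated A-204, SK-LMS-1 and VA-ES-BJ, in that order, MIR99AHG on 239999_at read 572, 26.2 and 213. MIRLET7BHG on 232480_at read 213, 72.6 and 142, WDR82 13055, 11350 and 12573, and HUWE1 on 207783_x_at 54000, 41032 and 39167. The name of 207783_x_at marks possible cross-hybridisation, and on HUWE1 208598_s_at the values were 5494, 3585 and 7349. VA-ES-BJ was also highest on the dimmer HUWE1 probe set 236294_at, at 356 against 186 for A-204 and 165 for SK-LMS-1. The order of the lines thus differed between the spanning transcripts and, for HUWE1, between its probe sets.

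Among other genes reported or predicted as let-7 targets, 6 of 16 tested genes fell and none rose, with a list median of -0.51. CDC25A, a cell cycle phosphatase, fell by 3.32 on the log2 scale (SE 0.79, limma adjusted p = 0.032), from signals of 608 to 818 in the untreated lines. COIL, which organises Cajal bodies, fell by 1.87 (SE 0.13, limma adjusted p = 0.00071), from 3281 to 767 in A-204, from 3301 to 816 in SK-LMS-1 and from 4425 to 1533 in VA-ES-BJ. PLAGL2, a zinc finger factor, fell by 1.65 (SE 0.15, limma adjusted p = 0.0012), and CDK6, DICER1 and MYC also passed. Unlike HMGA2, COIL was lower to a like extent in all lines, at -1.94, -1.91 and -1.67, and the line difference did not pass (limma adjusted p = 0.66). CCND1, at -0.17, and HRAS, at 0.24, did not pass.

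Of 7 tested transcripts that IGF2BP proteins are known to bind, 3 fell and none rose. MYC, a transcription factor whose message IGF2BP1 shields, fell by 1.07 (SE 0.25, limma adjusted p = 0.029), from 10577 to 3891 in A-204, from 12297 to 8399 in SK-LMS-1 and from 8434 to 3637 in VA-ES-BJ. BTRC, a ubiquitin ligase subunit, fell by 1.06 (SE 0.15, limma adjusted p = 0.005), and MKI67, a proliferation marker, fell by 0.66 (SE 0.10, limma adjusted p = 0.0074). ACTB was at 0.23 and CD44 at 0.06, and neither passed.

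In the HMGA2 network, 3 of 15 tested genes fell and none rose. TET1, a DNA demethylase gene reported as repressed by HMGA2, fell by 1.17 (SE 0.26, limma adjusted p = 0.026). SMAD3 fell by 0.595 (SE 0.14, limma adjusted p = 0.033) and SMAD4 by 0.48 (SE 0.12, limma adjusted p = 0.032), both of them carriers of the TGF-beta signal that induces HMGA2. CCNA2, a cyclin gene known as an HMGA2 target, was at -0.645 against untreated cells and did not pass (limma adjusted p = 0.12). Its line means, over the pairs without and with TRAIL, were -0.03 for A-204, -1.0 for SK-LMS-1 and -0.96 for VA-ES-BJ. SNAI1, an HMGA2 target in epithelial to mesenchymal transition, was at 1.60 (SE 0.70) and did not pass (limma adjusted p = 0.17).

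In the insulin-like growth factor axis 1 of 11 tested genes rose and none fell. IGFBP6, a binding protein with a preference for IGF2, rose by 0.55 (SE 0.13, limma adjusted p = 0.033), from 17936 to 26442 in A-204, from 5588 to 10223 in SK-LMS-1 and from 2102 to 2471 in VA-ES-BJ. This rise is close in size to the shift of the spikes. IGF1R, the receptor, was at -0.40 and did not pass (limma adjusted p = 0.095). Of 7 other tested oncofetal genes PLAG1, a zinc finger factor of fetal growth, fell by 1.19 (SE 0.17, limma adjusted p = 0.0065), and PEG10, an imprinted gene at 31965 in untreated VA-ES-BJ, was at 0.26 and did not pass.

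**Figure D5:**
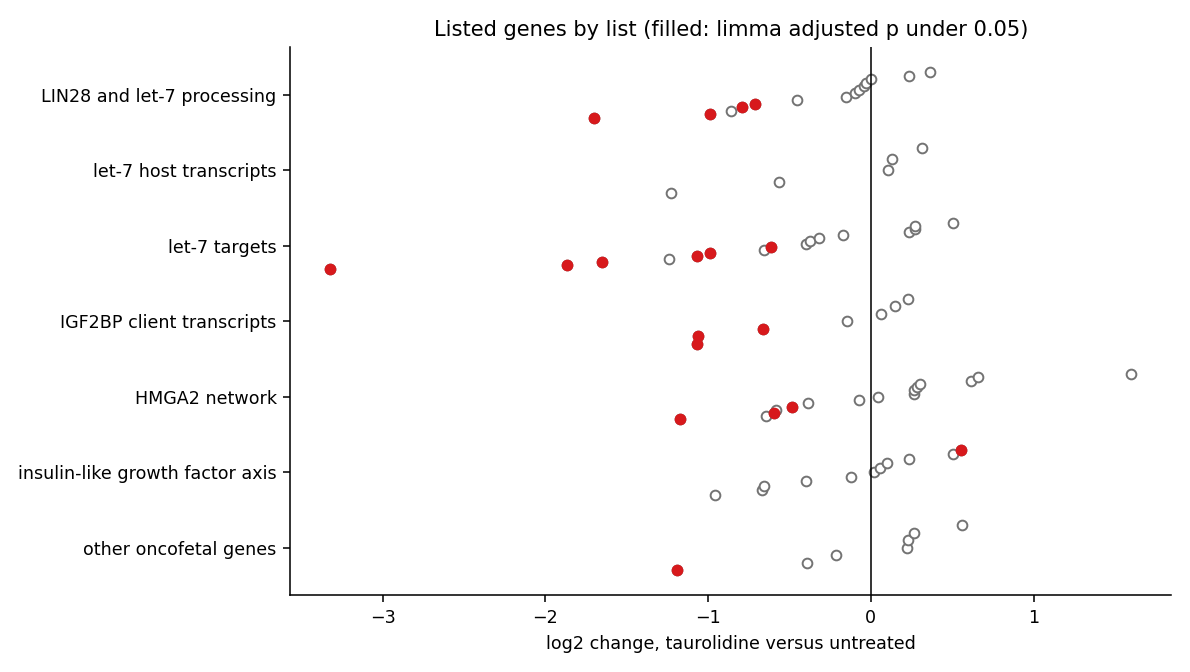
Log2 change with taurolidine against untreated cells for every tested gene of the 7 lists (limma, 12 arrays), with filled points for an adjusted p under 0.05. The 15 genes that fell reach from -0.48 (SMAD4) to -3.32 (CDC25A), and IGFBP6 is the 1 gene that rose.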

How the data were processed

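Total RNA of 12 samples was labelled by the Affymetrix 3' in vitro transcription procedure, per the labels. The authors deposited array intensity on a linear scale, for which the submitters' processing notes name MAS5. Neither names a version or a scaling target. Of 54675 probe sets, 41097 carry a single gene in the platform annotation, 1801 carry several and 11777 none, and 41043 of the single genes were matched to RefSeq (GRCh38.p14) for current symbols. Probe sets with several genes named none, and 62 controls were not tested.

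Tests used the 32421 probe sets above the table's median, 136.5, on 3 or more arrays. The table's 10th percentile, 11.8, was added to each value before log2, which understates changes of dim genes, and the arrays were not normalised further. On all 12 arrays, limma 3.58.1 (R 4.3.3) fitted linear models, with cell line and treatment as terms, and p-values were adjusted by Benjamini-Hochberg over all tested probe sets. The line difference in the taurolidine response came from a model with a line by taurolidine interaction and a common TRAIL term, that in the TRAIL response from one with both interactions. A gene was represented by its brightest tested probe set. The scripts were tested on simulated data.

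Arrays are paired by cell line, per the labels: deviations from treatment means correlated between 0.785 and 0.869 for arrays of the same line and between -0.473 and -0.35 otherwise. Nothing says that the arrays of a line come from repeated cultures, so p-values measure the spread between these arrays, line differences included. The precision is limited by the number of arrays. The members and the gene lists were chosen with earlier results of these data known. Named genes were the members, the listed genes with the largest changes or a call, and those with the highest r; DROSHA, CCND1, HRAS, CD44, CCNA2 and IGF1R were added after their values were seen. Alternatives covered the added constant, the scaling, the filter, the choice of probe set, the line term and leaving out each line.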

Additional observations from a re-analysis of the deposited data

Results flagged for a closer look

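In the 5 cases given here, both pairs of arrays of 1 line went one way with taurolidine. Both pairs of another line went the other way. This is not a full count, because other listed genes did the same, among them RELA, SNAI2, IGFBP3, XPO5, IGF2R, TWIST1 and SP1. The share of all tested probe sets that did so was not counted. For the 3 member probe sets the difference between the lines was not tested. The dim HMGA2 probe set 1558682_at was at 0.62 in VA-ES-BJ and -0.15 in A-204, a difference of 0.77 (log2). The IGF2BP1 probe set 227377_at was at 0.38 in SK-LMS-1, where its signal lay under the table's median, and at -0.997 in VA-ES-BJ, a difference of 1.38. IGF2BP2 on 218847_at was at 0.09 in VA-ES-BJ and -0.11 in SK-LMS-1, a difference of 0.20. SNAI1 was at 3.01 in A-204, with signals of 23.3 untreated and 273 with taurolidine, and at -0.16 in SK-LMS-1, a difference of 3.17, and the test over the 3 lines did not pass (limma adjusted p = 0.11). SALL4, a stem cell factor, was at 0.26 in VA-ES-BJ and -0.83 in SK-LMS-1, a difference of 1.09, and the test over the 3 lines did not pass either (limma adjusted p = 0.57). SALL4 read at most 70.3 in both lines.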

How the results depend on the processing

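No member was called in a TRAIL contrast under any alternative run. The lower HMGA2 signal in A-204 (-2.03) was -2.033 with no constant and with equal array medians, -1.97 with the table's median added, -1.98 after quantile normalisation and -2.75 with spike scaling; in SK-LMS-1 (-2.59) it was -2.49 with the table's median added, -2.53 with equal array medians and -3.11 with spike scaling; in VA-ES-BJ (-0.10) it was -0.635 with spike scaling. On the other HMGA2 probe sets the values were, for 1561633_at, 0.37 (A-204), 0.20 (SK-LMS-1) and 0.68 (VA-ES-BJ); for 1567224_at, 0.205, -0.935 and -0.49; for 1558683_a_at, 0.53, 0.23 and 0.61; for 1559891_at, -0.054 and -0.31 in the first 2 lines; for 1558682_at, -0.15, -0.078 and 0.62. The cause was not tested. For the other members 82 of 105 values stayed within the spread of the pairs and 23 moved. The settings that kept only 1 pair of a line lie within that spread by construction. They are among the 82, so this count overstates how many values stayed.

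The 4402 probe sets called for taurolidine (28.9% higher) became 17700 with spike scaling (0.689% higher), 1638 with no filter, 2735 with 1 probe set a gene (40.1% higher), 221 without the line as a replicate block, 0 with only the arrays compared, and 0 to 478 when a line was left out. The probe sets with a line difference in the taurolidine response were 81, or 0.25% of those tested. This share became 1.18% with the table's median added, 0.0864% with equal array medians, 0.157% with spike scaling, 0.0128% with no filter and 1.43% with 1 probe set a gene. It was 0% when any line was left out, where fewer arrays were fitted.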
